A study of Mus musculus with 52 samples.

Results

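The sites described here are 6681 H3K27ac peaks of Mbd3+/+ mouse embryonic fibroblasts (MEF), chosen from 63888 peaks of that list. Each also overlapped, by at least 1 bp, an H3K27ac peak of Mbd3flox/- MEF and an H3K27ac peak of +/+ cells on day 8 of reprogramming. None overlapped an H3K27ac peak of flox/- cells on day 8, of flox/- or +/+ induced pluripotent stem (iPS) cells, or an H3K4me3 peak of either MEF genotype. They are fibroblast sites outside MEF promoter marks whose acetylation was still called in +/+ cells on day 8, was no longer called in flox/- cells, and was absent from both iPS lists. They make up part of 49133 +/+ MEF H3K27ac peaks outside MEF H3K4me3. These 49133 are called all distal sites below, a name that rests on the lack of H3K4me3 and not on a gene annotation.

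H3K27ac is a histone mark of active promoters and enhancers, and an acetylated site without H3K4me3 is usually read as a candidate enhancer. NuRD is a chromatin complex that joins histone deacetylation to nucleosome remodelling. Mbd3 is one of its scaffold subunits and Mi2B its ATP-dependent remodeller. Oct4 is a pluripotency factor that, when forced into fibroblasts with Sox2, Klf4 and Myc, starts their conversion to iPS cells, in the course of which fibroblast enhancers are shut down.

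Chromatin was profiled by ChIP-seq in 2 genotypes, Mbd3flox/- (1 floxed and 1 null allele) and Mbd3+/+, as MEF in serum medium, on days 4 and 8 of doxycycline at 2 ug/ml in 2i/LIF medium, and as iPS cells in 2i/LIF medium. Doxycycline induced Oct4, Sox2, Klf4 and Myc in both genotypes. A further group was Mbd3-/- embryonic stem (ES) cells. The study used 1 clonal series of each genotype for chromatin work: flox/- and -/- cells carried the complete Oct4-GFP reporter, +/+ cells a version without the proximal enhancer (deltaPE), and cells were not sorted. Each combination of genotype, stage and antibody was 1 library with 1 peak list. No difference between genotypes or days therefore has a replicate check, and genotype cannot be told apart from clone, reporter or library.

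In all there were 928298 peaks in 43 lists of 274 to 63888 peaks each, and read depth is unknown. A missing peak was read as not called. A share of sites is given with its 95% Wilson interval and a difference of shares, in percentage points, with its 95% Newcombe interval. These intervals cover the counting of sites only, and neighbouring sites are not independent: the 6681 members lie on 6466 flox/- MEF peaks and 6587 +/+ day 8 peaks. In bulk chromatin, fewer cells with a mark and less of the mark per cell cannot be told apart. Mi2B lists of MEF, the Oct4 list of +/+ cells on day 8 and Mbd3 lists of flox/- cells were not analysed here, so no Mbd3 list bears on the flox/- label. No Mbd3 list of day 8 was analysed in either genotype. For 3 of the +/+ lists used below the stage label names another day than the title, which was followed: Mbd3 of day 4 (label day 6), Mi2B of day 4 (label day 7) and Mi2B of day 8 (label day 11).

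Members were compared with 19377 sites that met the same conditions but had no +/+ day 8 H3K27ac peak either, called here sites lost in both. Among distal sites acetylated in both MEF lists and in no iPS list (26632 sites), flox/- cells had a day 8 H3K27ac peak at 2.16% and +/+ cells at 26.5%. Another 369 such sites kept H3K27ac in both genotypes on day 8, and 205 kept it in flox/- cells alone. These 205 are the mirror image of the members by rule, and their values stand beside those of the members below, because the rule picks 1 genotype on day 8. All distal sites include sites acetylated in flox/- cells on day 8 or in iPS cells, which the rule keeps out of the members and of sites lost in both, so for flox/- day 8 and iPS lists a share under the background is partly built in. Conversely, all members have +/+ day 8 H3K27ac by rule, against 28.5% of all distal sites and no site lost in both. A +/+ share above either is therefore not independent of the rule. The flox/- day 8 H3K27ac list was the shorter, with 21237 peaks against 39463 in +/+, though it covered 91.0 Mb against 97.1 Mb. Of 3266 distal sites acetylated in both MEF and both iPS lists, flox/- cells had a day 8 peak at 69.6% and +/+ cells at 78.4%. With the +/+ day 8 list cut to its 21237 highest-scoring peaks, 2907 of the members remained.

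The H3K27ac values that chose the members are given as a description. The score of a peak is the authors' own. It is read within a list, apart from a cutoff of 100 that was put on all lists alike. Members were strong and wide sites in MEF. In flox/- MEF their median score was 717.0, against 283.7 at sites lost in both. In +/+ MEF it was 871.1 at members, against 238.9 at sites lost in both, which are percent ranks of 70.5 and 45.0 within that list. Scores of 3100 or more, where the scale has its ceiling, were reached in +/+ MEF by 959 members (14.4%) and 223 sites lost in both (1.15%). Median width was 3489 bp for members and 2109 bp for sites lost in both. By day 8 the +/+ peaks at members were of middling rank (41.4) with a median score of 159.9 and a median width of 1793 bp, and 2045 members (30.6%) had a day 8 score under 100. The day 8 peak covered a median of 49.8% of the member.

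**Figure D1:**
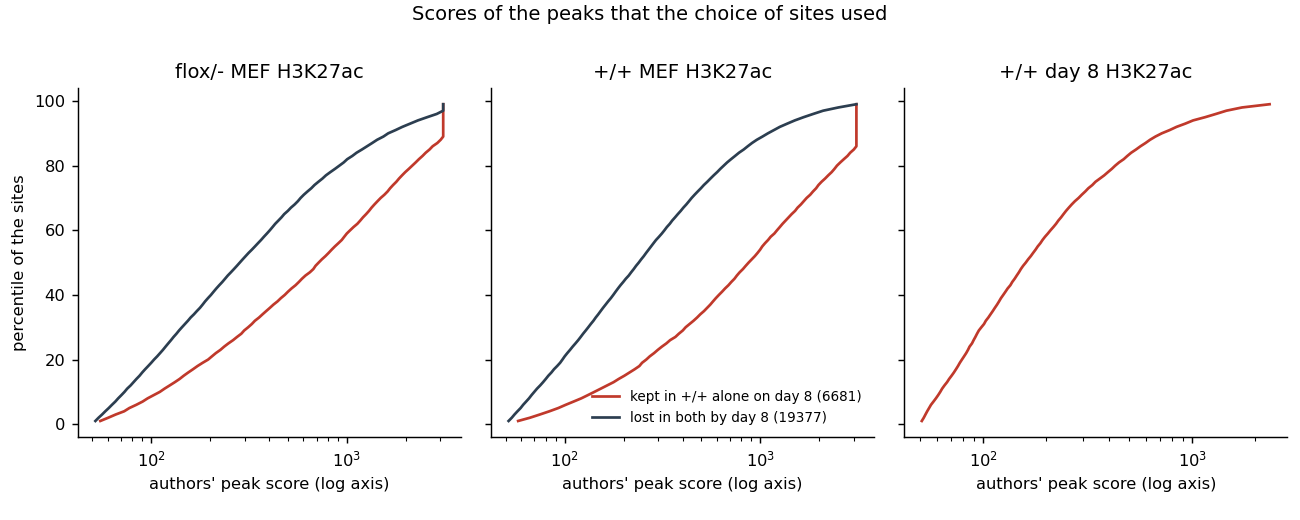
Percentile of sites (vertical axis) against the authors' peak score (log axis) in the flox/- MEF, +/+ MEF and +/+ day 8 H3K27ac lists, for members (red) and sites lost in both (dark). By definition, sites lost in both have no +/+ day 8 peak. Members lie to the right of sites lost in both in either MEF list, with medians of 717.0 and 283.7 in flox/- and 871.1 and 238.9 in +/+, and both curves turn vertical where scores pile up at 3100.

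In distance along the genome, few members sat close to the limits of the rule. Just inside, 20 members shared under 100 bp with their +/+ day 8 peak, and 14 lay within 100 bp of a flox/- day 8 peak without touching it. Within 1 kb of a flox/- day 8 peak there were 138 members (2.07%), and the median distance was 47.5 kb. Just outside, 51 sites lost in both lay within 100 bp of a +/+ day 8 peak, and 3 sites kept in both shared under 100 bp with a flox/- day 8 peak. In score many were close: the lowest +/+ day 8 score at a member was 50.02, and the 2045 members under 100 are nearest to not being called.

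The day 4 H3K27ac lists, which the rule did not use, already differed at members. On day 4 a peak was called at 1558 members in flox/- cells, or 23.3% (22.3 to 24.3), and at 4209 members in +/+ cells, or 63.0% (61.8 to 64.1). The background was 15.3% of all distal sites in flox/- and 21.6% in +/+. At the same sites the flox/- minus +/+ difference was -39.7 points (-41.0 to -38.3). The flox/- day 4 list held more peaks (39499 against 28173). Its peaks were narrower (median 1420 bp against 2590 bp) and covered less sequence (71.8 Mb against 91.8 Mb). Of the members, 1301 had a day 4 peak in both genotypes, 257 in flox/- alone, 2908 in +/+ alone and 2215 in neither. Sites lost in both showed no such gap: 4.60% had a day 4 peak in flox/- and 4.81% in +/+, a difference of -0.212 points (-0.586 to 0.162). At the 369 sites kept in both, 78.0% had one in flox/- and 77.8% in +/+. At the 205 sites kept in flox/- alone the gap ran the other way, with a day 4 peak at 43.4% in flox/- and 10.7% in +/+ (32.7 points, 25.3 to 39.7). On day 4 the sign thus followed the genotype by which the sites were chosen on day 8, in members and mirror sites alike. The word kept is thus loose for 2472 members, which had no +/+ peak called on day 4 and had one again on day 8.

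Mi2B, the NuRD remodeller, was called at more members in +/+ than in flox/- cells on both days. On day 4 its peaks overlapped 383 members in flox/- cells, or 5.73% (background 4.27%), and 877 members in +/+ cells, or 13.1% (background 5.29%). The flox/- minus +/+ difference was -7.39 points (-8.29 to -6.51), with 231 members marked in flox/- alone, 725 in +/+ alone and 152 in both. The day 4 Mi2B lists were of like length, 14384 peaks in flox/- and 13930 in +/+, though a median flox/- peak was wider (683 bp against 238 bp). On day 8 Mi2B overlapped 79 members in flox/- cells, or 1.18% (background 4.07%), and 1835 members in +/+ cells, or 27.5% (background 10.9%). The difference was -26.3 points (-27.4 to -25.2), and 1790 members were marked in +/+ alone. The sign was the opposite at the 205 sites kept in flox/- alone, where Mi2B was called on day 4 at 7.80% in flox/- and 2.44% in +/+ (5.37 points, 1.09 to 10.1) and on day 8 at 7.80% in flox/- and 3.90% in +/+ (3.90 points, 0.167 to 8.10). The sign went with the genotype by which the sites were chosen in both classes. Higher Mi2B in the genotype that kept acetylation is thus not particular to members. On day 4 the intervals spanned 0 at sites kept in both (0.813 points, -3.96 to 5.59) and sites lost in both (-0.119 points, -0.328 to 0.0901). On day 8 +/+ cells had more Mi2B in these classes too. The difference was -10.6 points (-15.4 to -5.69) at sites kept in both and -3.06 points (-3.32 to -2.8) at sites lost in both. Over all distal sites it was -6.82 points on day 8. Against sites lost in both, members had more Mi2B in either genotype: on day 4, 5.73% against 1.14% in flox/- and 13.1% against 1.26% in +/+, and on day 8, 1.18% against 0.248% in flox/- and 27.5% against 3.30% in +/+. Sites kept in both had Mi2B on day 4 at 17.6% in flox/- and 16.8% in +/+, and on day 8 at 16.0% and 26.6%.

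List length bears on these values and cannot be told apart from genotype. The +/+ day 8 Mi2B list held 23280 peaks against 13125 in flox/-, and keeping the 13125 highest-scoring peaks of each list made the day 8 difference -14.5 points (-15.4 to -13.6). The flox/- list had the wider peaks (median 1013 bp against 457 bp) and covered more sequence (14.6 Mb against 12.0 Mb). Equal numbers of peaks thus do not make the lists equal in the sequence they cover. Within +/+ cells the rise between days, 14.3 points (13.2 to 15.5), shrank to 3.50 points (2.50 to 4.50) when the day 8 list was cut to the length of the day 4 list. Within flox/- cells the fall was 4.55 points and, with lists of equal length, 3.88 points. Of the members with Mi2B on day 4, 32 of 383 in flox/- (8.36%) and 539 of 877 in +/+ (61.5%) had it again on day 8. Over all distal sites these shares were 35.8% in flox/- and 63.3% in +/+, and at sites lost in both 3.62% in flox/- and 31.1% in +/+. Mi2B peaks at members had low scores, with medians of 64.88 in flox/- and 67.98 in +/+ on day 4 and 70.7 in +/+ on day 8. Within their lists these were of middling rank, with median percent ranks of 43.6, 49.6 and 49.9 in the same order. At sites lost in both the ranks were 41.8, 35.1 and 34.5. With scores of at least 100 the flox/- minus +/+ differences were -1.54 points on day 4 and -5.72 points on day 8.

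By the pluripotent stage Mi2B was rare at members. It overlapped 0.284% of them in flox/- iPS cells and 2.45% in +/+ iPS cells, with backgrounds of 1.12% and 8.08%. Sites lost in both, barred from iPS acetylation by the same rule, had fewer, 0.0671% in flox/- iPS cells and 0.805% in +/+ iPS cells. In -/- ES cells, which lack Mbd3, Mi2B overlapped 3.88% of members, against 1.5% of sites lost in both and a background of 7.18%.

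Oct4 was rare at members in MEF: 5 members had a peak in flox/- MEF (0.0748%, background 0.059%) and 1 in +/+ MEF (0.015%, background 0.0224%). On day 4 its peaks overlapped 929 members in flox/- cells, or 13.9% (13.1 to 14.8), and 1350 members in +/+ cells, or 20.2% (19.3 to 21.2). The background was nearly equal, 8.42% in flox/- and 8.19% in +/+. Sites kept in both had Oct4 more often than members, at 34.4% in flox/- and 27.6% in +/+. Distal sites acetylated in both MEF lists and also in an iPS list had it at 22.7% in flox/- and 22.0% in +/+. Oct4 above the background was thus not particular to members. The flox/- minus +/+ difference was -6.30 points (-7.33 to -5.28), with 411 members marked in flox/- alone, 832 in +/+ alone and 518 in both. It had the opposite sign at sites lost in both, where 4.02% had Oct4 in flox/- and 2.33% in +/+ (1.69 points, 1.4 to 1.99). It was also the opposite at sites kept in flox/- alone, with Oct4 at 14.6% in flox/- and 2.93% in +/+ (11.7 points, 6.73 to 17.2). At members the lower flox/- share came from the longer list, 33755 peaks against 16785, and equal numbers of top peaks took the difference at members to -12.8 points (-13.8 to -11.9).

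Most Oct4 sites of day 4 were not called again in flox/- cells on day 8. The flox/- Oct4 list was shorter on day 8, with 19805 peaks against 33755 on day 4. Oct4 lists of equal length on both days were not compared. On day 8 Oct4 overlapped 223 members in flox/- cells, or 3.34% (background 5.52%), against 0.650% of sites lost in both. Of the 929 day 4 sites, 142 (15.3%) were marked again, against 8.60% of the 779 at sites lost in both and 36.5% over all distal sites. Distal sites whose acetylation was also in an iPS list, 51.6% of them acetylated in flox/- cells on day 8, had Oct4 again at 63.1% of 1444 day 4 sites. In iPS cells Oct4 overlapped 0.389% of members in flox/- and 1.56% in +/+, against 0.0671% and 0.413% of sites lost in both, with backgrounds of 0.775% and 3.14%.

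Mbd3 itself was called at few members, in short lists of +/+ cells alone. In MEF 127 members (1.90%, background 0.792%) had an Mbd3 peak and on day 4 66 members (0.988%, background 0.399%), of which 3 were the same. In iPS cells 0.703% had one, against 0.170% of sites lost in both and a background of 3.2%. The day 4 share exceeded that of sites lost in both, 0.108%, by 0.880 points (0.661 to 1.15). That difference ended with scores of at least 100, where it was 0.00981 points (-0.0172 to 0.0797). Of the 66 day 4 Mbd3 sites, 35 (53.0%) also had +/+ Mi2B on day 4, near the 56.1% of the 196 Mbd3 sites among all distal sites.

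**Figure D2:**
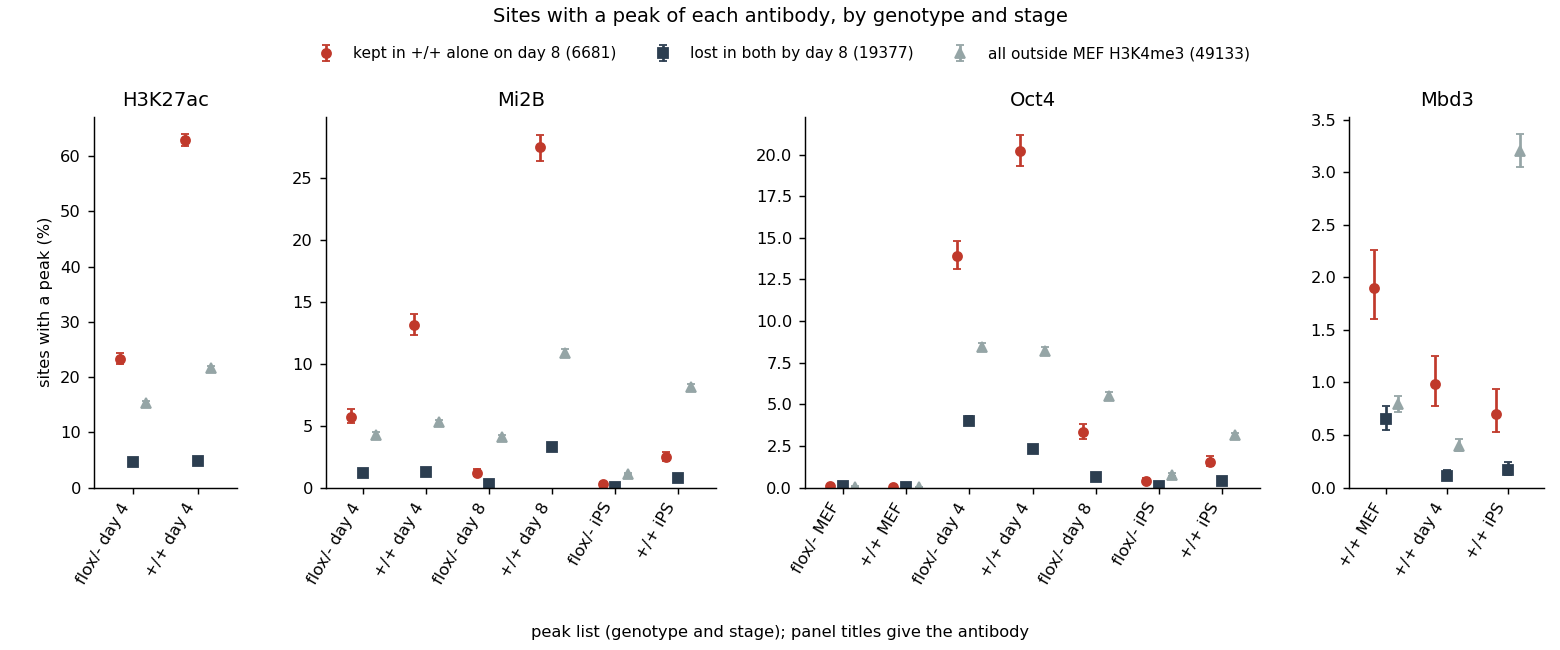
Share of sites with a peak (vertical axes, %, scaled per panel) in each list of H3K27ac, Mi2B, Oct4 and Mbd3, for members (red), sites lost in both (dark) and all distal sites (grey), with 95% Wilson intervals. Within their panels members stand highest at 63.0% for +/+ day 4 H3K27ac, 27.5% for +/+ day 8 Mi2B, 20.2% for +/+ day 4 Oct4 and 1.90% for +/+ MEF Mbd3. They lie above sites lost in both but under the grey background for flox/- day 8 Mi2B (1.18%) and Oct4 (3.34%) and in all iPS lists shown, where that background holds acetylated sites that the rule bars from members.

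On day 4, Oct4 and Mi2B were called more often at members with a day 4 H3K27ac peak in the same genotype. They were not confined to these members. Of the 929 members with Oct4 in flox/-, 236 were acetylated in +/+ alone and 66 in neither genotype. The same split over all distal sites was not made. At the 1301 members acetylated on day 4 in both genotypes, Oct4 was called at 42.3% in flox/- and 45.0% in +/+ cells, a difference of -2.69 points whose interval spans 0 (-5.64 to 0.266). At the 257 members acetylated in flox/- alone it was called at 30.0% in flox/- and 4.28% in +/+. At the 2908 acetylated in +/+ alone it was called at 8.12% in flox/- and 23.3% in +/+. Where neither genotype had day 4 acetylation, Oct4 was called at 2.98% in flox/- and 3.48% in +/+. The sign of the Oct4 difference thus followed the genotype that held the mark, from 25.7 points (19.8 to 31.7) to -15.2 points (-16.8 to -13.5).

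Day 4 Mi2B took the same sides at sites acetylated in one genotype: 10.5% in flox/- and 4.28% in +/+ where flox/- alone was acetylated, and 2.54% in flox/- and 15.9% in +/+ where +/+ alone was. At members acetylated in both it was 19.4% in flox/- and 26.7% in +/+ (-7.23 points, -10.1 to -4.34); whether this difference is unlike that of Oct4 was not tested. Day 8 Mi2B was higher in +/+ in all 4 states, and by the rule all members were acetylated in +/+ and none in flox/- on that day. It reached 38.2% of members acetylated in both on day 4 and 15.0% of those acetylated in neither.

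**Figure D3:**
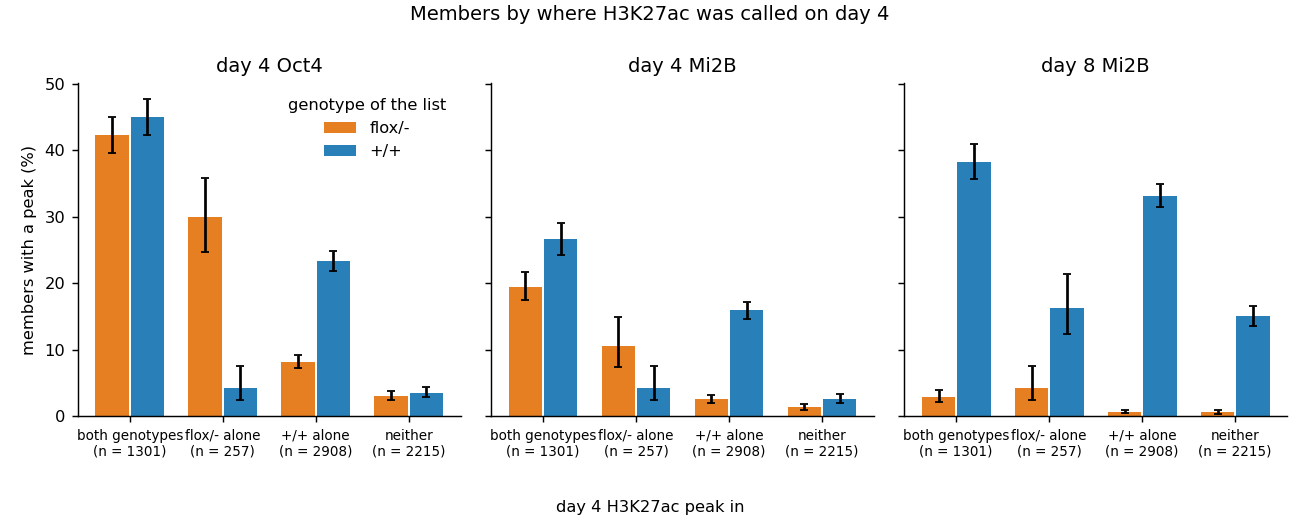
Share of members with a peak (vertical axis, %) of day 4 Oct4, day 4 Mi2B and day 8 Mi2B in flox/- (orange) and +/+ (blue) lists, split by which genotype had an H3K27ac peak on day 4, with 95% Wilson intervals. Day 4 Oct4 stands near 42.3% in flox/- and 45.0% in +/+ where both were acetylated, and the taller bar changes side with the acetylated genotype.

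Oct4 and Mi2B also met at the same members within a genotype. On day 4, Mi2B was called at 24.7% of members with Oct4 and 2.68% of members without it in flox/- cells (22.0 points, 19.3 to 24.9). In +/+ cells these shares were 36.2% and 7.28% (28.9 points, 26.3 to 31.6). Over all distal sites the same comparison gave 32.5% and 1.68% in flox/- (30.8 points) and 36.4% and 2.52% in +/+ (33.8 points). The overlap of Oct4 and Mi2B was thus no greater at members than over all distal sites. At sites lost in both it was smaller than at members. There the shares were 14.6% and 0.575% in flox/- (14.1 points, 11.7 to 16.7) and 12.9% and 0.983% in +/+ (11.9 points, 9.09 to 15.3). In +/+ cells Mi2B of day 8 was called at 48.2% of members with day 4 Oct4 and 22.2% of members without it (26.0 points). Over all distal sites these shares were 48.5% and 7.54% (40.9 points), and at sites lost in both 12.0% and 3.1% (8.88 points). Nevertheless, 3559 members (53.3%) had no Mi2B, Oct4 or Mbd3 peak in any MEF, day 4 or day 8 list used, with Mbd3 read in +/+ MEF and day 4 alone. The same held for 89.6% of sites lost in both and 77.2% of all distal sites.

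Because members are wider than sites lost in both, shares were also read within bands of width. Under 2 kb, day 4 Oct4 in flox/- cells marked 14.9% of 1144 members and 2.78% of 8837 sites lost in both. In +/+ cells it marked 19.6% of these members and 1.63% of these lost sites. Day 8 Mi2B in +/+ cells marked 17.7% of members and 2.18% of lost sites under 2 kb, and 35.8% and 5.93% over 4 kb. Members exceeded sites lost in both in each of the 3 width bands for H3K27ac, Mi2B and Oct4 in both genotypes. For Mbd3 in MEF the interval spanned 0 in the band of 2 to 4 kb, where 0.905% of members and 0.782% of lost sites were marked (0.123 points, -0.240 to 0.584). Members were also wider than all distal sites (median 1991 bp), and their excess over these varied with width. Over 4 kb, day 4 Oct4 marked 16.0% of members and 18.9% of all distal sites in flox/-, and 21.9% and 19.4% in +/+. Day 4 Mi2B marked 6.74% and 9.99% there in flox/-, and 17.0% and 15.1% in +/+. Under 2 kb members stood above all distal sites in each of these lists, for example 14.9% against 5.25% for flox/- Oct4.

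**Figure D4:**
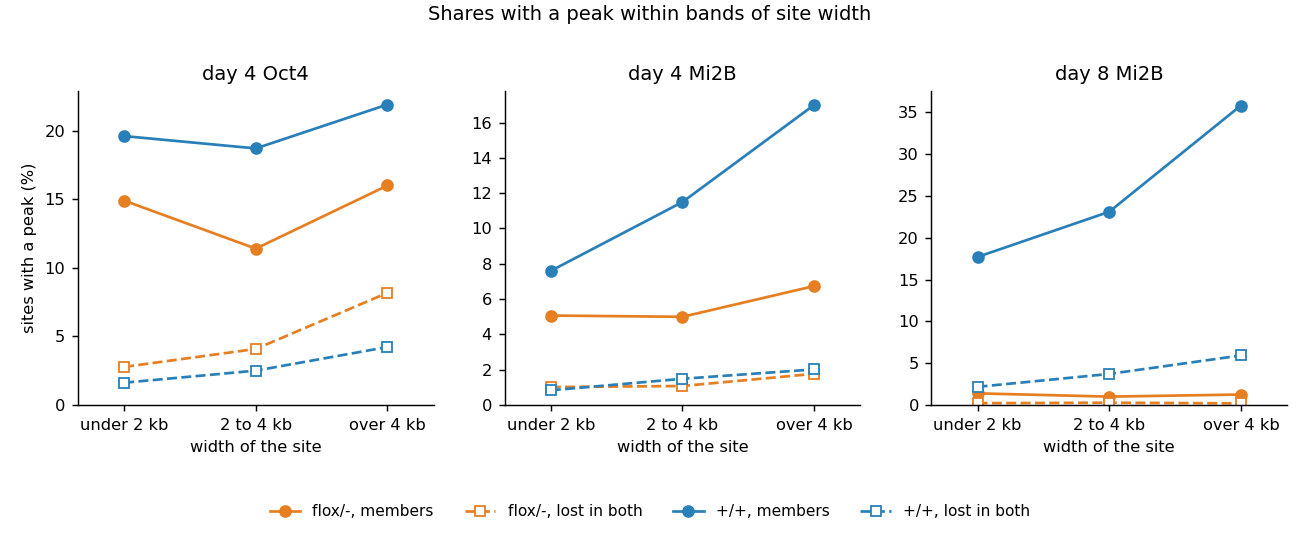
Share of sites with a peak (vertical axes, %, scaled per panel) of day 4 Oct4, day 4 Mi2B and day 8 Mi2B within 3 bands of site width, for flox/- (orange) and +/+ (blue) lists, at members (filled, solid) and sites lost in both (open, dashed). Members lie above lost sites of the same genotype in each band, for example 17.7% against 2.18% for +/+ day 8 Mi2B under 2 kb, and +/+ members lie above flox/- members throughout.

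Within members, factor peaks lay towards the centre of the acetylated stretch. The midpoints of day 4 Oct4 peaks fell in the inner part, nearer to the centre than to the edge, for 61.3% of 936 midpoints in flox/- and 71.3% of 1412 in +/+. For day 4 Mi2B these shares were 65.2% of 379 in flox/- and 77.1% of 1058 in +/+. For +/+ day 8 Mi2B the share was 77.0% of 2110. Sites lost in both had shares of 52.5% in flox/- and 67.5% in +/+ for day 4 Oct4, 68.6% in flox/- and 73.3% in +/+ for day 4 Mi2B and 77.0% for +/+ day 8 Mi2B, so a central place was not particular to members. Of the members with day 4 Oct4, 93 in flox/- (10.0%) and 127 in +/+ (9.41%) had 2 or more peaks. For day 4 Mi2B these were 19 members in flox/- (4.96%) and 161 in +/+ (18.4%, with up to 5 peaks), and for +/+ day 8 Mi2B 260 (14.2%).

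**Figure D5:**
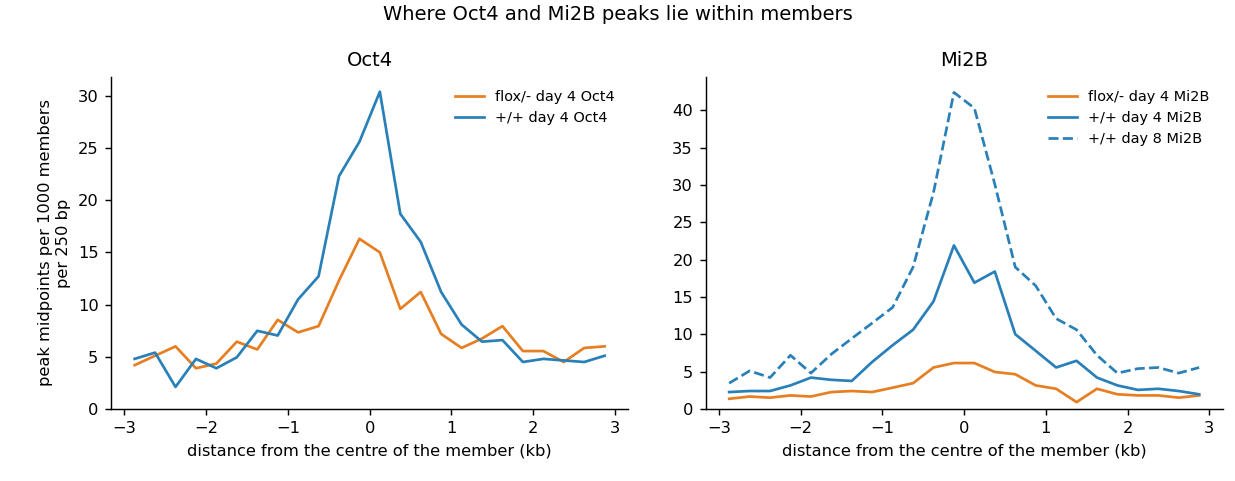
Number of peak midpoints, scaled to 1000 members, in bins of 250 bp (vertical axes) against distance from the centre of the member in kb, for Oct4 (left) and Mi2B (right) in flox/- (orange) and +/+ (blue) lists, with day 8 dashed. The curves are highest within 500 bp of the centre, which held 29.7% of flox/- and 41.7% of +/+ day 4 Oct4 midpoints within 3 kb, and 34.1% and 43.2% for day 4 Mi2B.

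Single regions show how these values combine (mm9 coordinates; scores are the authors' and are read within a list only). The member chr5:111628923-111637922, 9000 bp wide, was one of the 5 with the highest combined day 4 Oct4 ranks. Its Oct4 scored 1186.70 in flox/- and 1720.51 in +/+ on day 4, and 644.24 in flox/- on day 8. Its H3K27ac scored 1040.14 in flox/- and 2083.31 in +/+ on day 4, and on day 8 no flox/- peak was called while the +/+ peak scored 2759.12. Mi2B scored 170.96 in flox/- and 97.97 in +/+ on day 4, and 84.20 in flox/- and 197.38 in +/+ on day 8. The site thus held Oct4 and Mi2B peaks in flox/- cells on day 8 without an H3K27ac peak.

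The same held for chr6:38921788-38926947, whose Oct4 scored 1296.62 in flox/- and 1072.68 in +/+ on day 4 and 312.74 in flox/- on day 8. Its H3K27ac scored 1099.97 in flox/- and 756.52 in +/+ on day 4, with no flox/- peak and a +/+ score of 547.43 on day 8. This site also had a peak of H3K27ac (436.42) and of Mi2B (134.98) in -/- ES cells. In all, 16 members (0.239%) had Mi2B in both genotypes on both days, against 0.655% of all distal sites and 0.00516% of sites lost in both. Of these 16 members, 11 had Oct4 in flox/- on day 8. The member chr2:152964752-152967109 had the highest +/+ day 8 Mi2B score among the 16: Mi2B scored 71.20 in flox/- and 243.49 in +/+ on day 4, and 116.58 in flox/- and 346.99 in +/+ on day 8.

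In the +/+ day 8 H3K27ac list 23 members reached the ceiling of the score, 22 of them tied at 3100 and 1 above it. Of the 23, 18 were narrower than their day 8 peak and 10 had no Mi2B, Oct4 or Mbd3 peak in any MEF, day 4 or day 8 list. Day 4 H3K27ac was called at 13 of them in flox/- and 22 in +/+, day 4 Oct4 at 6 in flox/- and 9 in +/+, and day 8 Mi2B at 0 in flox/- and 10 in +/+. The 5 described here are the 1 above the ceiling and the first 4 of the tied 22 in chromosome order, and do not stand for the rest. At chr1:163928018-163958469 and chr1:163963216-163980783, neighbours of 30452 and 17568 bp, H3K27ac scored 3100.00 in flox/- MEF, +/+ MEF and +/+ day 8 cells. On day 4 the first scored 510.90 in flox/- and 1736.96 in +/+, and the second 99.87 in flox/- and 3100.00 in +/+. Day 4 Oct4 scored 81.69 in flox/- and 477.66 in +/+ at the first, and was called in +/+ alone, at 256.41, at the second. Both had +/+ Mi2B on days 4 and 8 and no flox/- Mi2B on day 8. The other 3 of the 5 were narrow fibroblast peaks overlapped by far wider day 8 peaks, with no Oct4, Mi2B or Mbd3 in any list. At chr2:52884831-52885928 the MEF score was 62.27 in flox/- and 85.38 in +/+ over 1098 bp. Its day 4 H3K27ac scored 707.63 in flox/- and 1570.54 in +/+, and the +/+ day 8 peak, 7861 bp wide, scored 3179.69. At chr2:169822049-169822775, 727 bp wide, the MEF score was 1223.95 in flox/- and 55.61 in +/+. No flox/- peak was called there on day 4, and the +/+ peaks of days 4 and 8 both scored 3100.00. For these 3 sites the day 8 score describes a wider region than the member.

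Members often lay near one another. Runs were not counted for all distal sites or for sites lost in both, so this is not shown to be particular to members. With neighbours taken as members within 20 kb of the next, 3063 members (45.8%) lay in 1154 runs of 2 or more, and 84 runs held 5 or more. The largest, chr9:13328427-13491692, held 17 members over 163.0 kb. On day 4, H3K27ac was called at 3 of these 17 in flox/- cells and at 13 in +/+ cells, Mi2B at 0 in flox/- and 1 in +/+, and Oct4 at 0 in flox/- and 3 in +/+. On day 8, Mi2B was called at 0 of them in flox/- and 4 in +/+. The run chr3:126319658-126386019 held 9 members, with day 4 H3K27ac at 4 in flox/- and all 9 in +/+, and day 8 Mi2B at 0 in flox/- and 4 in +/+.

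The Polycomb mark H3K27me3, a mark of repressed chromatin, was rare at members in MEF, at 0.509% in flox/- and 0.329% in +/+ (backgrounds 0.942% and 0.672%). In iPS cells it was called at 1.93% of members in flox/- and 3.47% in +/+ (backgrounds 1.29% and 1.96%), and in -/- ES cells at 3.67% (background 2.16%). Sites lost in both had it at 1.22% in flox/- iPS cells, 1.79% in +/+ iPS cells and 1.94% in -/- ES cells. For +/+ iPS cells members exceeded them by 1.69 points (1.23 to 2.19). By width the excess was 1.11 points (0.319 to 2.2) under 2 kb and 1.82 points (0.733 to 2.9) over 4 kb. In the band of 2 to 4 kb it was 0.457 points, with an interval that spanned 0 (-0.130 to 1.14). H3K27ac was called in -/- ES cells at 9.73% of members, against 4.48% of sites lost in both and a background of 18.0%.

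H3K4me3, the promoter mark that the rule kept out in MEF, was called on day 4 at 205 members in flox/- cells (3.07%, background 2.09%) and 34 in +/+ cells (0.509%, background 0.234%). Where day 4 H3K27ac was called in both genotypes it reached 7.30% in flox/- and 1.23% in +/+. Over all distal sites the genotypes differed in the same direction.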

How the data were processed

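Chromatin of mouse cells was profiled by ChIP-seq for 6 antibodies, and 43 of the 52 samples have a peak list, 1 per library; the 9 inputs have none. The genome build was mm9 and the tools were MACS 1.4.1, Bowtie 0.12.5 and CASAVA 1.8.2, per the submitters' processing notes; settings are not given in the sources used here. Each list gives positions and a score deposited by the authors, whose range (50 upwards, a ceiling near 3100) is that of a log-scaled p. Scores were ranked only within a list, but the alternative with a score of at least 100 put the same cutoff on all lists. Read depth is unknown.

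The members, site classes and lists were chosen with earlier results of these data known. Samples were grouped by title. Sites are peaks of the +/+ MEF H3K27ac list, and a site counts as marked if it shares at least 1 bp with a peak. Genotypes and days were compared at the same sites with a paired 95% Newcombe interval, and site classes with an independent one; no test across replicates exists. Sites lost in both have +/+ day 8 H3K27ac as the only difference in their rule. Alternatives were a score of at least 100, peak midpoints inside the site, autosomes alone, sites cut to 250 bp on each side of their midpoint, equal numbers of top peaks, no barring peak within 1 kb, and sites from the flox/- MEF list. Named regions are the 5 members with the highest +/+ day 8 H3K27ac score (22 tie at the ceiling of 3100, taken in chromosome order), the 5 with the highest summed day 4 Oct4 ranks, the 5 with the highest +/+ day 8 Mi2B score among those with Mi2B in all day 4 and day 8 lists, and the 5 largest runs; the text describes some of each.

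Genes near the sites, marker genes of the labelled cell types and sequence motifs were not analysed, because the reference tables used here are of the GRCm38.p6 assembly. Overlaps and intervals were tested on simulated data with shifted edges and background peaks, and overlaps were checked against bedtools 2.31.1, which gave the same 6681 members and the same 1835 with +/+ day 8 Mi2B. Python 3.11.15, numpy 2.4.6 and matplotlib 3.10.9 were used.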

Additional observations from a re-analysis of the deposited data

Results flagged for a closer look

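Mi2B at members moved in opposite directions between days 4 and 8 in the 2 genotypes. In flox/- cells the day 8 minus day 4 difference was -4.55 points (-5.14 to -3.99), and in +/+ cells it was 14.3 points (13.2 to 15.5). Whether the 2 changes differ was not tested, as each list is 1 library. The flox/- list had 14384 peaks on day 4 and 13125 on day 8, and the +/+ list 13930 and 23280. Over all distal sites the flox/- share was 4.27% on day 4 and 4.07% on day 8, and the +/+ share 5.29% and 10.9%. At sites lost in both the day 8 minus day 4 differences were also of opposite sign, -0.893 points in flox/- and 2.04 points in +/+. With lists of equal length on both days the differences were -3.88 points in flox/- and 3.50 points in +/+. The stage label of the +/+ day 8 library names day 11, and that of the +/+ day 4 library day 7.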

How the results depend on the processing

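Over 14 results and 11 settings, 127 of 129 recomputed values kept their direction and their side of 0, or for the number of members stayed within 1.5 times. The number of members was 2907 with equal numbers of top peaks in the day 8 H3K27ac lists, and the excess of +/+ day 4 Mbd3 at members over sites lost in both was 0.00981 points with scores of at least 100, where few Mbd3 peaks are left. No difference changed sign, but 33 of 123 moved by over 1.5 times, mostly with scores of at least 100, with sites of 250 bp either side of their midpoint, or with lists of equal length. Settings that asked for a +/+ day 8 score of at least 100, barred sites with -/- ES H3K27ac, or gave the Mi2B lists of days 4 and 8 equal length were added after the data were seen. Genotypes and days were paired by site alone. No pairing of replicates was possible because the labels give no replicate numbers and each group is 1 library. Unknown depth limits every missing peak to not called.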

Other observations

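Members were spread over all chromosomes. They made up between 11.9% (chromosome 15) and 15.1% (chromosome 19) of distal sites on the autosomes and 10.4% (8.70 to 12.5) of the 1005 distal sites on X.

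The 369 sites kept in both genotypes differ from members by rule in flox/- day 8 H3K27ac. Day 8 Mi2B marked 1.18% of members and 16.0% of sites kept in both in flox/- cells (-14.8 points, -18.9 to -11.4), and 27.5% and 26.6% in +/+ cells (0.908 points, -3.94 to 5.29). Day 8 Oct4 in flox/- cells marked 3.34% of members and 26.3% of sites kept in both (-22.9 points, -27.7 to -18.7). In -/- ES cells H3K27ac was called at 9.73% of members and 37.1% of sites kept in both (-27.4 points, -32.5 to -22.6). The 16 members with Mi2B in both genotypes on both days had H3K27ac in -/- ES cells at 4 sites and Mi2B there at 8.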
